A study of Mus musculus with 12 samples.

Results

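The comparison described here sets 3 ventral hippocampus libraries of mice with hepatic ACOT12 knockdown that were exposed to SSDS (SSDS-shACOT12 1, 2 and 3) against 3 of mice that received AAV8-eGFP and were exposed to SSDS (SSDS-GFP 1, 2 and 3). These are 6 of the 12 libraries of the study; the others are untreated controls and mice exposed to CSDS. The libraries of each group were taken from their labels, and all genes were compared between the groups in a fit of these 6 libraries. All 6 carry the genotype label WT and share the SSDS exposure, so no library here shows knockdown or virus without SSDS. In this field SSDS usually stands for subthreshold social defeat stress, a short exposure to an aggressor that by itself leaves most mice little changed, but the labels give the abbreviation only. The column names carry the prefix TBG, the usual name of a hepatocyte promoter used in AAV8 vectors, and the labels do not spell it out. They also do not say that replicates come from separate animals, so a p-value here reflects the spread of the libraries, part of which may be technical.

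ACOT12 is a cytosolic thioesterase, best known from the liver, that splits acetyl-CoA into acetate and coenzyme A. Acetate leaves the liver with the blood, can enter brain cells through monocarboxylate transporters, and is turned back into acetyl-CoA there by ACSS1 and ACSS2, which feed the citric acid cycle, lipid synthesis and histone acetylation. The ventral hippocampus is the part of the hippocampus most tied to anxiety, stress responses and social avoidance. The comparison asks how the transcripts of this brain region differ between SSDS-exposed mice with and without reduced ACOT12 in liver.

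Acot12 itself (ENSMUSG00000021620, chromosome 13, 91741512 to 91786148, mm10) was close to absent from the hippocampus. It had 3, 8 and 7 counts in SSDS-GFP 1, 2 and 3 and 7, 3 and 4 counts in SSDS-shACOT12 1, 2 and 3. These values overlap and lie under the filter on low counts, and a hippocampal count checks neither a knockdown made in liver nor the group labels. Neuronal genes were present: Camk2a, the kinase of excitatory synapses, had 2222 to 2944 CPM (counts scaled to library size) in SSDS-GFP against 2372 to 3700 in SSDS-shACOT12. Prox1, a transcription factor of dentate gyrus granule cells, had 98.4 to 135 and 75 to 104 CPM. Neither gene tells ventral from dorsal hippocampus, so the ventral part of the label was not checked. Of 16 hepatocyte genes 14 had too few counts to be tested, and albumin (Alb) had 0 to 17 counts per library. Of 15 choroid plexus genes 10 were not tested, and the 5 tested are given with the ependymal genes below.

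Each of the 6 libraries held 14656714 to 16803073 counts. Several libraries stood apart from the rest of their group. SSDS-shACOT12 2 correlated less with the other knockdown libraries (mean r = 0.960 of log2 CPM across genes) than with the SSDS-GFP libraries (0.979). SSDS-GFP 3 and SSDS-shACOT12 3 held 71 and 54 genes at a level at least 2-fold above every other library, of 13725 genes considered, against 2 to 10 such genes in each of the other 4. Counts of mitochondrially encoded genes made up 7.99%, 8.84% and 6.65% of SSDS-GFP 1, 2 and 3 and 3.23%, 9.24% and 4.31% of SSDS-shACOT12 1, 2 and 3. Replicates differed by a typical (median over genes) SD in log2 CPM of 0.24 among SSDS-GFP and 0.30 among SSDS-shACOT12 libraries. What these libraries share beyond their group labels was not tested, and values without one of them are given beside the results it carries most.

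No gene passed the test of knockdown against GFP after correction for the number of genes tested. edgeR's quasi-likelihood test with Benjamini-Hochberg adjustment called 0 of 16075 genes at an adjusted p under 0.05 (0%), with a smallest adjusted p of 0.982. The DESeq2 Wald test, limma-voom with library quality weights and limma-trend on log2 FPKM also called 0. At an unadjusted p under 0.05 the test held 183 genes (1.14%), 74 of them higher (0.46%) and 109 lower (0.678%) with knockdown. A share of 0.05 is expected at that threshold if no gene differs, and the share here was smaller. Of these 183, 62 had gene-model or accession names or were annotated as pseudogenes or unconfirmed genes. For the pseudogenes among them reads can come from a similar locus elsewhere. Values of all 3 knockdown libraries lay above all 3 GFP libraries for 398 genes (2.48%) and below them for 360 (2.24%). Groups of 3 libraries also separate at part of the genes under random labels, so a lack of overlap is not by itself a difference. Log2 fold changes were positive for 8432 genes (52.5%), with a median over all genes tested of 0.016. With the replicate number as a block, 0 genes were called and 1434 held an unadjusted p under 0.05, 325 higher and 1109 lower. All differences below are therefore values of these libraries that did not pass the test: every adjusted p is 0.982 or more, and each ± after a log2 fold change is its standard error from the model. Genes are named by the rule given with the processing, except the markers Camk2a, Prox1 and Alb and Ifit3, Irf1, Tlr2, Ccl2, Ccl3, Ccl4, Ccl5, Cxcl10, Il1a, Il1rn, Gal, Hcar2, Ffar2, Ffar3, Tgfbr1 and Calb1, which were chosen from the lists after their values were seen.

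**Figure D1:**
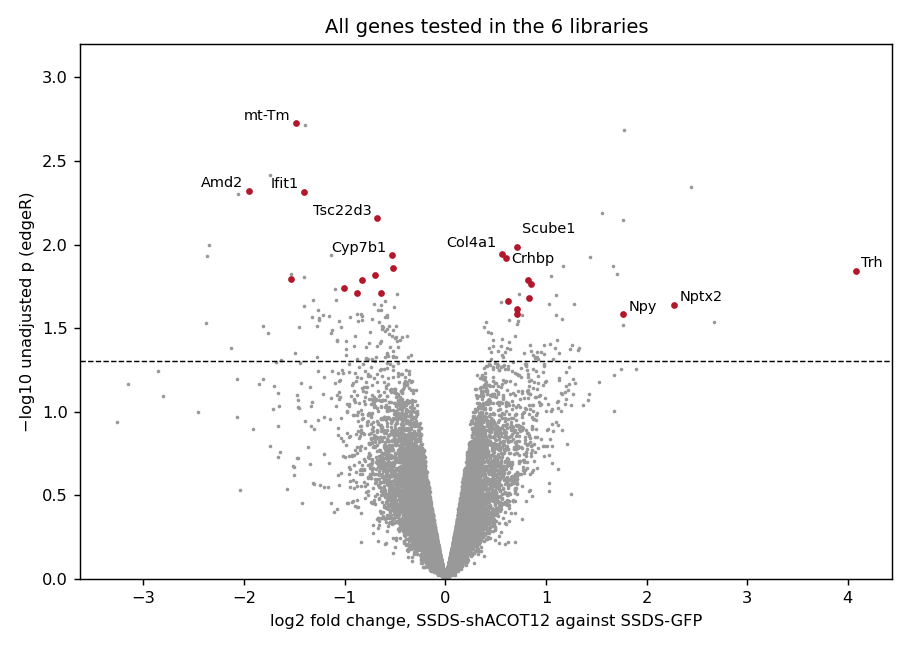
Each point is 1 of 16075 genes, with the log2 fold change of SSDS-shACOT12 against SSDS-GFP on the x axis and −log10 of the unadjusted p of edgeR's test on the y axis; the dashed line marks 0.05. Red points are the 24 genes with the smallest p by the naming rule, which run from an unadjusted p of 0.00188 for mt-Tm upwards, and none of the points passed the adjusted threshold.

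The named genes higher with knockdown included Col4a1, Hspg2, Col27a1, Col11a2 and Scube1, and no list of extracellular matrix genes was counted. Col4a1, a chain of the basement membrane collagen type IV (ENSMUSG00000031502, chromosome 8, 11198423 to 11312826), had 30.7, 35.4 and 32.6 CPM in SSDS-GFP 1, 2 and 3 and 52.3, 39.4 and 54.6 CPM in SSDS-shACOT12 1, 2 and 3. Its groups did not overlap, with SSDS-shACOT12 2 nearest to the GFP libraries (log2 fold change 0.57 ± 0.18, unadjusted p = 0.0114). Hspg2, which encodes the basement membrane proteoglycan perlecan, had 6.3, 5.57 and 7.98 CPM in SSDS-GFP against 10.7, 8.7 and 15.7 in SSDS-shACOT12. SSDS-shACOT12 3 was the highest library and the groups again did not overlap (log2 fold change 0.82 ± 0.28, and 0.55 without that library). The fibrillar collagen gene Col27a1 had 3.65, 4.65 and 5.55 CPM against 6.87, 7.03 and 11.1, a log2 fold change of 0.85 ± 0.29, and did not overlap either. Col11a2, another fibrillar collagen, had 19.6, 18.8 and 17.6 CPM against 34.7, 18.5 and 38.7. There SSDS-shACOT12 2 lay among the GFP libraries while the other knockdown libraries lay above them (log2 fold change 0.72 ± 0.26). Scube1, a secreted and cell surface glycoprotein of vessels and platelets (ENSMUSG00000016763, chromosome 15, 83604999 to 83725021), had the smallest p of the named higher genes, with 10.5, 10.7 and 8.38 CPM in SSDS-GFP against 15.3, 13.3 and 19.8 in SSDS-shACOT12 and a log2 fold change of 0.71 ± 0.22 (unadjusted p = 0.0104). All 3 of its knockdown values lay above the GFP values.

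Crhbp (ENSMUSG00000021680, chromosome 13, 95431371 to 95444924) encodes a secreted protein that binds corticotropin-releasing hormone and limits its action, and it is made by a subset of interneurons. It had 24.9, 22.7 and 26.4 CPM in SSDS-GFP against 30.4, 35.8 and 45.8 CPM in SSDS-shACOT12. All knockdown libraries were higher than all GFP libraries, with the highest value in SSDS-shACOT12 3 (log2 fold change 0.60 ± 0.19, unadjusted p = 0.012). Its log2 fold change ran from 0.42 to 0.73 when each library was left out in turn. Serhl and Mblac1, both hydrolase-like genes, and the membrane protein gene Tmem150a were also higher in every knockdown library, with log2 fold changes of 0.83 ± 0.29, 0.71 ± 0.26 and 0.63 ± 0.22. Serhl had 1.72, 1.7 and 2.32 CPM against 3.19, 3.22 and 3.82. Mblac1 had 3.37, 2.95 and 3.85 against 4.54, 5.93 and 6.19 CPM, and Tmem150a 7.09, 6.88 and 8.15 against 12.5, 8.9 and 12.7. By the size of the change, Cdhr3, a cadherin of ciliated cells, and Pcdha12, a clustered protocadherin, were named too. Cdhr3 had 2.01, 1.97 and 1.08 CPM against 2.58, 2.39 and 4.73 (log2 fold change 0.95 ± 0.40, and 0.56 without SSDS-shACOT12 3), and Pcdha12 1.00, 2.03 and 1.93 against 4.17, 2.51 and 2.55. Pcdha genes share their last exons with the other genes of their cluster, so the counts of Pcdha12 are uncertain.

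Among the genes lower with knockdown, mt-Tm, the mitochondrial transfer RNA for methionine (ENSMUSG00000064344, chromosome MT, 3845 to 3913), had the smallest p of the genes named. It had 5.73, 4.65 and 2.89 CPM in SSDS-GFP against 1.6, 1.48 and 1.64 in SSDS-shACOT12 (log2 fold change -1.48 ± 0.34, unadjusted p = 0.00188). The knockdown values were close to one another and lay below every GFP value. The tyrosine transfer RNA mt-Ty had 17.6, 9.9 and 12.1 against 6.32, 9.41 and 6.61 CPM, and the histidine transfer RNA mt-Th 7.88, 4.13 and 5.89 against 0.798, 4.06 and 0.425 CPM. Neither overlapped between groups, but SSDS-shACOT12 2 came close to the lowest GFP library in both. Such short genes are poorly recovered by this kind of library, and copies in the nuclear genome can take or give reads. Amd2 (ENSMUSG00000063953, chromosome 10, 35708675 to 35711892), an intronless copy of the polyamine synthesis gene Amd1, had 3.01, 12.1 and 4.36 CPM against 1.96, 1.61 and 1.46. SSDS-GFP 2 was the high library, and reads of Amd2 and its parent gene cannot be assigned with certainty (log2 fold change -1.95 ± 0.52, and -1.14 without SSDS-GFP 2).

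Tsc22d3 (ENSMUSG00000031431, chromosome X, 140539528 to 140600659) encodes GILZ, a leucine zipper protein that glucocorticoid receptors induce and that dampens inflammatory signalling. It had 75.9, 73.9 and 81.4 CPM in SSDS-GFP against 37, 58.4 and 49.1 CPM in SSDS-shACOT12. The GFP libraries lay close together and above all knockdown libraries (log2 fold change -0.68 ± 0.19, unadjusted p = 0.00697), and with any 1 library left out the log2 fold change ran from -0.86 to -0.52. Cyp7b1, which hydroxylates oxysterols and neurosteroids in the brain (ENSMUSG00000039519, chromosome 3, 18071950 to 18243338), had 32.8, 34.5 and 26.8 CPM against 21.4, 23.3 and 20.7 (log2 fold change -0.53 ± 0.17). Cyp1b1, another cytochrome P450 that acts on steroids and retinoids, had 3.65, 4.72 and 4.13 against 2.03, 1.8 and 2.97 CPM (log2 fold change -0.88 ± 0.31). Neither gene overlapped between groups. The other named lower genes without overlap were Ano3, an ion channel family member of neurons, the synaptic adhesion gene Cntnap5a, the Mediator subunit Med31, the uridine phosphorylase Upp1 and Rtl3, a gene derived from a retrotransposon. Their log2 fold changes were -0.70 ± 0.23, -0.52 ± 0.17, -0.64 ± 0.22, -1.0 ± 0.35 and -1.41 ± 0.51, with -0.45 for Ano3 without SSDS-GFP 2 and -0.64 for Upp1 without SSDS-GFP 3. For Rtl3, SSDS-shACOT12 1 was at 3.07 CPM, nearer to the GFP libraries at 3.94, 4.26 and 4.47 than to the other knockdown libraries at 1.03 and 0.667.

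**Figure D2:**
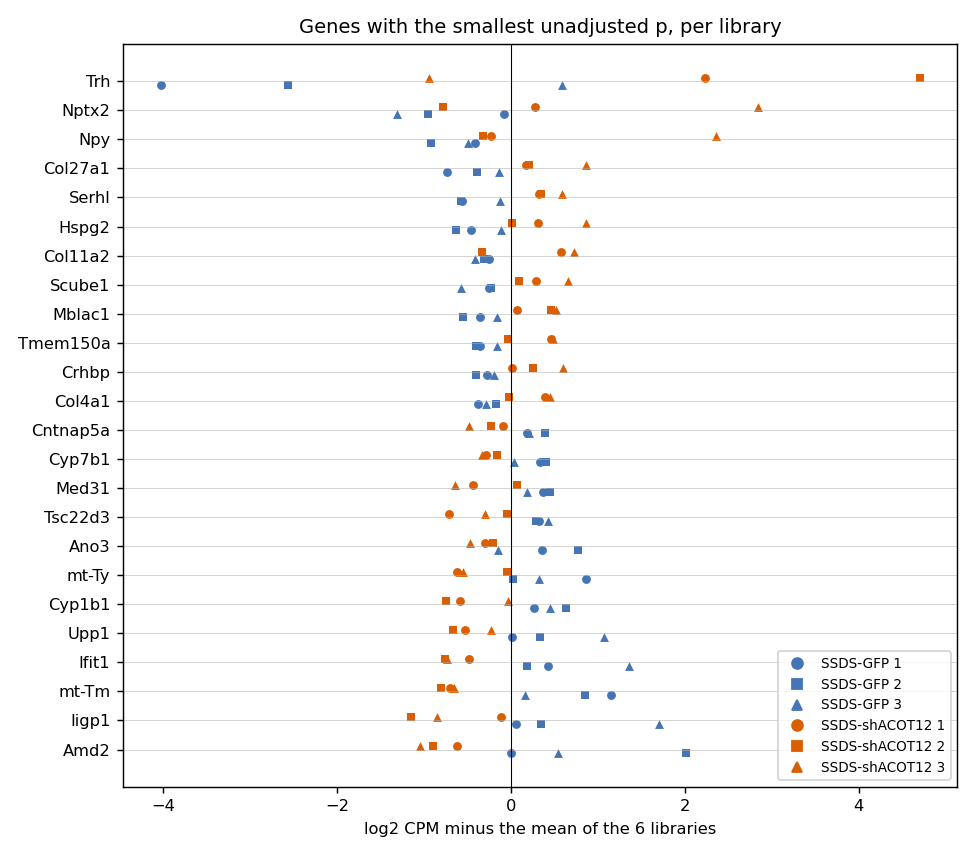
Log2 CPM of the 24 named genes with the smallest p, each centred on its mean over the 6 libraries (x axis, log2 units); blue symbols are SSDS-GFP, orange symbols SSDS-shACOT12, and the shape gives the replicate number. For Trh, Nptx2 and Npy 1 knockdown library lies far to the right of the other knockdown libraries, while for Tsc22d3, Crhbp and mt-Tm the groups separate without such a library.

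Interferon response genes encode antiviral effectors, guanylate-binding proteins and the factors that induce them. Ifit1 (ENSMUSG00000034459, chromosome 19, 34640871 to 34650009) and Ifit3 (ENSMUSG00000074896, chromosome 19, 34583531 to 34588731) are neighbouring members of 1 family that bind viral RNA, and their promoters are shown because both carry the binding motif of the interferon-activated factor ISGF3, searched as GAAA, then 2 bases of any kind, then GAAA on either strand. On the strand printed a match of the other strand reads TTTC, 2 bases, TTTC. The sequences are the 250 bases before each RefSeq start on GRCm38.p6, plus strand, at chr19:34640639-34640888 and chr19:34583279-34583528, with matches in capitals.
Ifit1: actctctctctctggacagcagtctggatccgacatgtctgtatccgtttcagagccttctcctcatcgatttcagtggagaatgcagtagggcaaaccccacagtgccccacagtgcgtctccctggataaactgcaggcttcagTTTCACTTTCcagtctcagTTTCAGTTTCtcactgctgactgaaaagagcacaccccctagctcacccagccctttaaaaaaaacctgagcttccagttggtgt
Ifit3: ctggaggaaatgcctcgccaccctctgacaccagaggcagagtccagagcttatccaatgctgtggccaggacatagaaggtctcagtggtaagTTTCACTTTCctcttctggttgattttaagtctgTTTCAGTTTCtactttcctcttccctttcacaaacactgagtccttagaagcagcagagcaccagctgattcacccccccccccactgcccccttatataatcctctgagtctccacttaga
The Ifit1 matches begin 104 and 85 bases before the start, and those of Ifit3 156 and 122 bases before it. Of the 26 tested members of the interferon list, 21 had a promoter in the RefSeq table and 10 of those (47.6%) held the motif in this window, against 936 of 27025 genes (3.46%). The match describes the letters only.

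Ifit1 had 3.8, 3.21 and 7.25 CPM in SSDS-GFP against 2.03, 1.68 and 1.7 CPM in SSDS-shACOT12. Every knockdown library was below every GFP library, and SSDS-GFP 3 was the highest (log2 fold change -1.40 ± 0.37, unadjusted p = 0.00482). Without SSDS-GFP 3 the log2 fold change was -0.96. Ifit3 had 8.31, 5.57 and 12.2 CPM against 6.08, 5.54 and 9.83, and its groups overlapped (log2 fold change -0.28 ± 0.34). Iigp1, an interferon-induced GTPase that attacks the vacuoles of parasites, had 1.93, 2.36 and 6.06 CPM against 1.72, 0.838 and 1.03 and did not overlap (log2 fold change -1.53 ± 0.51, and -0.84 without SSDS-GFP 3). Gbp2, a guanylate-binding protein, had 3.37, 2.16 and 31.8 CPM against 2.76, 2.97 and 4.61. Rsad2, which encodes the antiviral enzyme viperin, had 0.573, 1.25 and 11.2 CPM against 1.23, 1.35 and 0.546. For Gbp2 and Rsad2 the log2 fold changes of -1.86 ± 0.89 and -2.07 ± 0.97 rest on SSDS-GFP 3, the other 5 libraries overlapping. Without that library they were 0.32 and 0.18. Gbp3, a further guanylate-binding protein, had 5.16, 4.2 and 10.6 against 3.62, 3.35 and 4.61 CPM (log2 fold change -0.79 ± 0.38, and -0.27 without SSDS-GFP 3).

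Over the interferon list, 22 of 26 tested members had lower values with knockdown and 4 higher, with a median log2 fold change of -0.46 beside 0.016 over all genes. None was called, 1 had an unadjusted p under 0.05 (Ifit1), and 2, Ifit1 and Irf1, were lower in every knockdown library. Over all genes tested 0.678% were lower at that p and 2.24% lower in every knockdown library. Irf1 had a log2 fold change of -0.42 ± 0.25, and of -0.14 without SSDS-GFP 3. SSDS-GFP 3 held the highest value of 21 of the 26 members, while it held the highest value of 12.4% of all genes tested. Without SSDS-GFP 3 the median was 0.026. The summed level of the list was 192 to 367 CPM in SSDS-GFP against 195 to 221 CPM in SSDS-shACOT12. Antigen presentation genes had the same shape: 15 of 18 were lower with a median of -0.24, 16 of 18 were highest in SSDS-GFP 3, and without it the median was 0.55. Cd74, the invariant chain of MHC class II, had 1.07, 0.918 and 47.5 CPM in SSDS-GFP against 1.6, 0.451 and 5.04 in SSDS-shACOT12, so that SSDS-shACOT12 3 was next to SSDS-GFP 3 (log2 fold change -2.80 ± 1.42). H2-Eb1, a class II beta chain, had 0.716, 0.656 and 14.7 CPM against 0.736, 0.774 and 2.79.

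Cytokine and chemokine genes were concentrated in the same library. Of the 33 genes on the inflammation list 8 did not pass the filter on low counts, among them Il1b, Il6 and Tnf, and they are given as raw counts with no test. Il1b, the inflammasome cytokine (ENSMUSG00000027398, chromosome 2, 129364570 to 129371139), had 0, 2 and 236 counts in SSDS-GFP 1, 2 and 3 and 6, 3 and 40 counts in SSDS-shACOT12 1, 2 and 3. Tnf, the main early cytokine of macrophages and microglia, had 0, 0 and 219 counts against 3, 1 and 11. Il6 had 0, 1 and 128 counts against 2, 2 and 14. In each case SSDS-GFP 3 was highest and SSDS-shACOT12 3 second. Il1rn, the natural antagonist of the IL-1 receptor, had 0, 0 and 135 counts against 1, 1 and 20. The chemokines Ccl2, Ccl3, Ccl4 and Cxcl10, which attract monocytes and T cells, had 162, 186, 127 and 89 counts in SSDS-GFP 3, compared with 18, 21, 5 and 17 in SSDS-shACOT12 3. In the other 4 SSDS libraries these 8 genes had 0 to 7 counts each, and in the control and CSDS libraries 0 to 16. Summed, the 8 genes had 10, 11 and 1282 counts in SSDS-GFP against 27, 18 and 146 in SSDS-shACOT12. Relative to its library total, SSDS-shACOT12 3 held between 4.01% (Ccl4) and 19.4% (Cxcl10) of the level in SSDS-GFP 3, with exact 95% binomial intervals of 1.28% to 9.6% and 10.8% to 32.9% that cover counting error only.

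**Figure D3:**
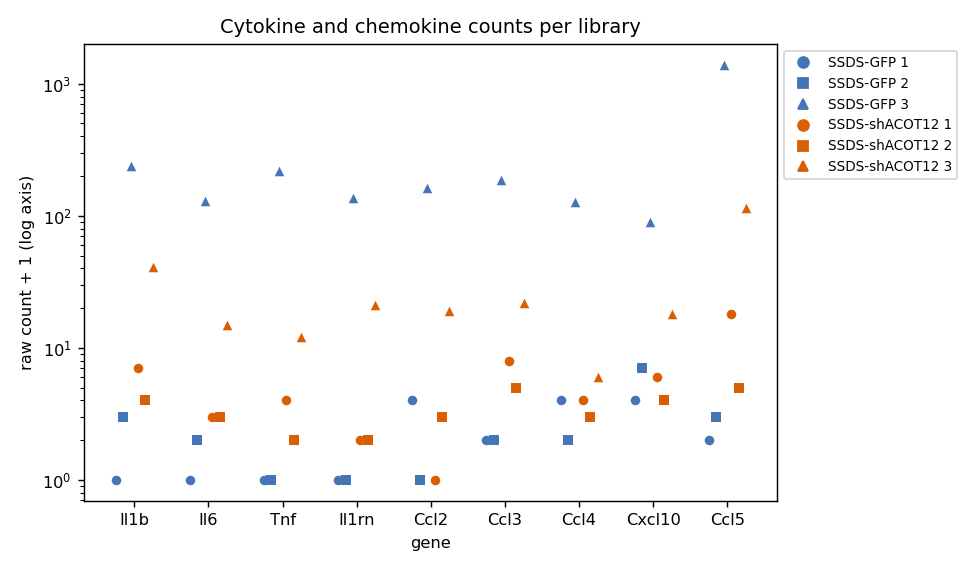
Raw counts plus 1 on a log axis (y) of the 8 inflammation genes that did not pass the filter and of Ccl5 (x), 1 symbol per library with colour for group and shape for replicate. SSDS-GFP 3 is the highest library for all 9 genes, with 89 to 1391 counts, and SSDS-shACOT12 3 is second for each, with 5 to 114 counts.

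Of the 25 members that were tested, 9 were higher and 16 lower with knockdown, with a median log2 fold change of -0.22. Without SSDS-GFP 3 the median was 0.12. Ccl5 and Il1a had the lowest log2 fold changes of the list. Ccl5, a T cell attracting chemokine, had 1, 2 and 1391 counts in SSDS-GFP against 17, 4 and 114 in SSDS-shACOT12, or 0.0716, 0.131 and 78.8 CPM against 1.04, 0.258 and 6.92. Il1a had 0.287, 0.656 and 16.6 CPM against 0.245, 0.967 and 1.21. Their log2 fold changes of -3.26 ± 1.86 and -2.86 ± 1.30 became 4.64 and 0.76 without SSDS-GFP 3. Tlr4, the receptor for bacterial lipopolysaccharide (ENSMUSG00000039005, chromosome 4, 66827584 to 66930284), had 1.22, 0.787 and 1.13 CPM against 0.184, 0.451 and 0.607 and did not overlap (log2 fold change -1.32 ± 0.50, unadjusted p = 0.027), and with any 1 library left out the log2 fold change ran from -1.70 to -0.97. These are 12 to 20 counts per GFP library and 3 to 10 per knockdown library, so the estimate is imprecise. Nfkbia, the NF-kB inhibitor that NF-kB itself induces, had 20.5, 21.9 and 30.2 CPM against 14.9, 15.2 and 20.1 without overlap (log2 fold change -0.53 ± 0.21, and -0.34 without SSDS-GFP 3). Tlr2, a receptor for bacterial lipoproteins, was also lower in every knockdown library, at 1.00, 0.983 and 1.59 against 0.675, 0.967 and 0.789 CPM. The IL-1 receptor gene Il1r1 had 15.6, 20.6 and 19 against 17.4, 8.38 and 5.89 CPM, where SSDS-shACOT12 1 lay among the GFP libraries (log2 fold change -0.80 ± 0.36). The inflammasome sensor Nlrp3 had 0.645, 0.524 and 2.21 against 1.35, 0.451 and 1.09 CPM, with overlap.

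Microglial identity genes had no such high library: SSDS-GFP 3 held the highest value of 0 of 16 homeostatic microglia genes, against 12.4% of all genes tested. Of these 16 genes 9 were higher and 7 lower, with a median log2 fold change of 0.010 and summed levels of 374 to 402 CPM in SSDS-GFP against 368 to 431 in SSDS-shACOT12. Among activation genes 7 of 14 tested members were higher (median 0.021). SSDS-GFP 3 held the highest value of 5 of the 14 and SSDS-shACOT12 3 of 6, against 12.4% and 23.3% of all genes tested. The mean log2 CPM of this list, relative to the 6 libraries, was 0.44 in SSDS-GFP 3, 0.24 in SSDS-shACOT12 3 and negative in the others. Cd68, a lysosomal protein of phagocytes, had 5.95, 4.06 and 9.17 CPM against 9.08, 6.64 and 13.3 (log2 fold change 0.60 ± 0.36, with overlap). Lgals3, a galectin of activated microglia and macrophages, had 0.86, 0.983 and 21.8 CPM against 1.1, 0.967 and 3.58. It was highest in SSDS-GFP 3 with SSDS-shACOT12 3 second, as the cytokines were. In bulk tissue, fewer cells of a type and less RNA per cell cannot be told apart, here and in all that follows.

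Penk, Npy, Nptx2 and Vgf had their highest value in a different library, SSDS-shACOT12 3. Penk, the precursor of the enkephalin opioid peptides (ENSMUSG00000045573, chromosome 4, 4133531 to 4138819), had 34.5, 34 and 37.9 CPM in SSDS-GFP against 47.8, 23.6 and 608 CPM in SSDS-shACOT12. Npy, neuropeptide Y of interneurons (ENSMUSG00000029819, chromosome 6, 49822710 to 49829507), had 56.3, 39.5 and 53.4 CPM against 64.1, 60.2 and 384. Nptx2, a secreted pentraxin that clusters AMPA receptors and is induced by activity (ENSMUSG00000059991, chromosome 5, 144545902 to 144557478), had 29.5, 16.1 and 12.6 against 38, 18.2 and 224 CPM. For these genes SSDS-shACOT12 3 was far above every other library, whereas the remaining knockdown libraries were near the GFP libraries. Their log2 fold changes were 2.67 ± 1.02, 1.77 ± 0.66 and 2.27 ± 0.82, with unadjusted p of 0.0291, 0.0261 and 0.023 in edgeR. Without SSDS-shACOT12 3 the log2 fold change of Penk was -0.0016, that of Npy 0.32 and that of Nptx2 0.52. Vgf, a precursor of secreted peptides that neurotrophins induce, had 203, 172 and 178 CPM against 223, 208 and 563, all knockdown libraries being above all GFP libraries (log2 fold change 0.85 ± 0.36, and 0.22 without SSDS-shACOT12 3). Penk is also on the list of striatal markers, whose summed level was 157 to 188 CPM in SSDS-GFP against 152 to 764 CPM in SSDS-shACOT12. Most of the 764 CPM is Penk itself, at 608 CPM in SSDS-shACOT12 3, so the sum does not describe the other striatal genes. Of the 10 tested striatal genes 6 were higher (median 0.031), and Penk alone had an unadjusted p under 0.05. At that p 0.46% of all genes tested were higher. The part of neighbouring tissue in the level of Penk was not tested.

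Bdnf, the neurotrophin of activity-dependent plasticity, had 58.7, 68.9 and 29.7 CPM against 49.4, 39.7 and 182. The immediate early gene Fosb had 11.5, 9.44 and 8.83 against 9.27, 8.51 and 82 CPM, and Fos 22.6, 17.5 and 12.5 against 14.2, 13.2 and 49 CPM. SSDS-shACOT12 3 was again the highest library for each, and the other libraries overlapped. Their log2 fold changes of 0.78 ± 0.56, 1.75 ± 0.79 and 0.54 ± 0.49 became -0.25, -0.16 and -0.36 without it. Over the 21 immediate early genes 16 were higher and 5 lower (median 0.15), and 11 were highest in SSDS-shACOT12 3. Without that library the median was -0.14. The peptide precursor Gal did not pass the filter, with 7, 3 and 18 counts in SSDS-GFP against 2, 4 and 123 in SSDS-shACOT12. Gfap, the intermediate filament of astrocytes that is raised in reactive cells, had 319, 267 and 309.6 CPM against 393, 223 and 1167, also highest in SSDS-shACOT12 3 (log2 fold change 0.99 ± 0.51, and 0.034 without it). C4b, a complement component of reactive astrocytes, had 26.2, 27.2 and 40.6 against 39.6, 27.9 and 108 CPM (log2 fold change 0.90 ± 0.46, and 0.099 without that library). The reactive astrocyte list as a whole had 9 of 17 tested members highest in that library and a median of 0.18, which was -0.42 without it.

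Trh, the precursor of thyrotropin-releasing hormone (ENSMUSG00000005892, chromosome 6, 92242061 to 92244650), was high in yet another library. It had 0.0716, 0.197 and 1.76 CPM in SSDS-GFP against 5.46, 30.2 and 0.607 CPM in SSDS-shACOT12. SSDS-shACOT12 2 was the highest, SSDS-shACOT12 1 second, and SSDS-shACOT12 3 lay below SSDS-GFP 3, so the log2 fold change of 4.08 ± 1.34 is the highest of the named genes but its groups overlap. It was 2.08 without SSDS-shACOT12 2 and 6.38 without SSDS-GFP 3. Over the 18 tested neuropeptide genes 6 had their highest value in SSDS-shACOT12 2 and 6 in SSDS-shACOT12 3. In this list 11 genes were higher and 7 lower, with a median of 0.081 that became 0.43 without SSDS-GFP 3. The 3 with an unadjusted p under 0.05 were Npy, Penk and Trh, all higher, while 0.46% of all genes tested were higher at that p. Each of these 3 rests largely on 1 or 2 knockdown libraries, as given above.

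**Figure D4:**
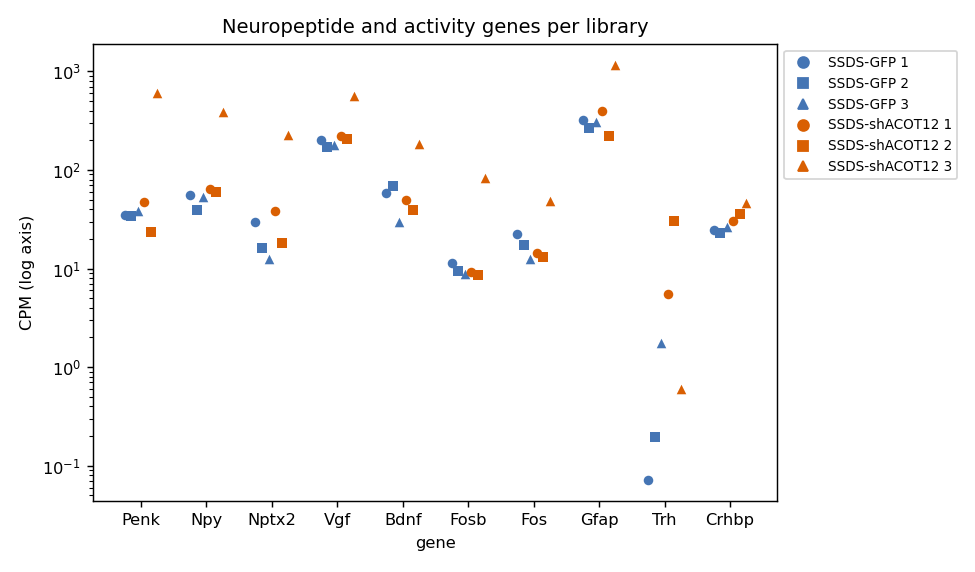
CPM on a log axis (y) of neuropeptide, activity and astrocyte genes (x), 1 symbol per library with colour for group and shape for replicate. SSDS-shACOT12 3 is the highest library for all genes shown but Trh, for which SSDS-shACOT12 2 is highest at 30.2 CPM, and for Crhbp all 3 knockdown values lie above the GFP values.

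Genes of acetyl-CoA and acetate metabolism, the pathway in which ACOT12 acts, held no gene with an unadjusted p under 0.05. Only 1.14% of all genes tested had such a p, so lists of this size could hold none. Of 12 tested acyl-CoA thioesterases 5 were higher and 7 lower with knockdown (median log2 fold change -0.15). None had groups without overlap, against 4.72% of all genes tested in either direction. The most abundant, Acot7, a neuronal long-chain thioesterase, had 339, 267 and 307 CPM against 331, 319.6 and 479 (log2 fold change 0.31 ± 0.20, and 0.09 without SSDS-shACOT12 3). Acot5, a peroxisomal member, had 9.03, 6.95 and 4.64 against 7.61, 2.97 and 2.85 CPM and overlapped. Of 21 acetyl-CoA and acetate enzymes 16 were higher and 5 lower (median 0.087). SSDS-shACOT12 3 held the highest value of 11 of them, and without it the median was 0.034. Acss2, the nuclear and cytosolic acetyl-CoA synthetase (ENSMUSG00000027605, chromosome 2, 155517948 to 155585724), had 43.2, 45.2 and 42.5 CPM in SSDS-GFP against 51, 45.4 and 55.8 in SSDS-shACOT12. It was the only enzyme of that list without overlap, by a narrow gap between SSDS-GFP 2 and SSDS-shACOT12 2 (log2 fold change 0.22 ± 0.15, unadjusted p = 0.192). Over all genes tested 2.48% were higher in every knockdown library, so 1 gene in a list of 21 does not set this list apart. The mitochondrial counterpart of Acss2, Acss1, had 31.1, 33.4 and 35 against 35.5, 34 and 36.6 CPM (log2 fold change 0.093 ± 0.15). Acly, which makes acetyl-CoA from citrate, had 119.9, 144 and 115 against 127, 138 and 155 CPM (log2 fold change 0.15 ± 0.16), and the citrate carrier Slc25a1 32.2, 25.1 and 37.6 against 37.4, 30.7 and 56.9. Aspa, which releases acetate from N-acetylaspartate in oligodendrocytes, had 15.5, 17.5 and 12.3 against 8.9, 16.2 and 6.25 CPM, with overlap.

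The list of monocarboxylate transporters, their receptors and the enzymes of ketone and lactate metabolism had 6 of 12 tested members higher and a median of -0.015, whose sign changed in 7 of 16 alternatives. Slc16a1, the transporter MCT1, had 46.4, 52 and 47.3 CPM against 42.6, 54.3 and 45.2 (log2 fold change -0.036 ± 0.16). The acetate receptor genes Ffar2 and Ffar3 had 0 to 2 counts in every library and were not tested. Hcar2, a receptor for ketone bodies and butyrate on myeloid cells, had 0, 0 and 42 counts in SSDS-GFP against 1, 0 and 4 in SSDS-shACOT12, the same 2 highest libraries as for the cytokines. Of 25 genes that write or erase histone acetylation 15 were higher and 10 lower, with a median of 0.091 that became -0.024 without SSDS-GFP 1, and none had an unadjusted p under 0.05.

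Cholesterol and fatty acid synthesis, which consumes acetyl-CoA, had 23 of 27 genes higher with a median log2 fold change of 0.27. SSDS-shACOT12 3 held the highest value for 19 of the 27, against 23.3% of all genes tested, and without it the median was 0.0011. Mvd, a mevalonate pathway enzyme, had 21, 19.3 and 19.1 CPM against 26.1, 17.3 and 50.7. SSDS-shACOT12 3 was its highest library, and SSDS-shACOT12 2 lay below the GFP libraries (log2 fold change 0.67 ± 0.34, and 0.13 without SSDS-shACOT12 3).

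Of 10 tested genes of the CRH system and the corticosteroid receptors 6 were higher and 4 lower (median 0.025), and Crhbp was the only one with an unadjusted p under 0.05. At that p 0.46% of all genes tested were higher. Crh itself, the hormone that Crhbp binds, was low, at 1.43, 2.69 and 2.26 CPM in SSDS-GFP against 1.04, 3.74 and 1.46 in SSDS-shACOT12 (log2 fold change -0.041 ± 0.51). The glucocorticoid receptor gene Nr3c1 had 82, 93.4 and 64 CPM against 75.8, 88.6 and 36.4, with SSDS-shACOT12 3 the lowest (log2 fold change -0.25 ± 0.31). Of 23 genes that glucocorticoids induce, 5 were higher and 18 lower (median -0.14), and the sign of the median held in all 16 alternative settings, with -0.059 without SSDS-GFP 3. Besides Tsc22d3 and Nfkbia, which are on this list, the metallothionein Mt2 and the TGF-beta receptor Tgfbr1 had no overlap between groups. These 4 of 23 genes were lower in every knockdown library, as were 2.24% of all genes tested. Mt2 had 6.45, 8.33 and 8.55 CPM against 6.01, 4.45 and 5.52, and Tgfbr1 30.8, 33.6 and 30.6 against 22.4, 30.0 and 14.7. The receptor co-chaperone Fkbp5, a widely used readout of these receptors, had 79.5, 76.6 and 70.5 against 88.9, 60.8 and 83.3 CPM and overlapped (log2 fold change 0.04 ± 0.18). Nfkbia counts under both this list and the inflammation list. Glucocorticoid targets were lowest in SSDS-shACOT12 2 for 12 of the 23 genes.

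All 13 protein genes of the mitochondrial genome had negative log2 fold changes in the edgeR fit, with a median of -0.59. SSDS-shACOT12 2 did not share the lower levels. The mean log2 CPM of the list, relative to the 6 libraries, was 0.71, 1.26 and -0.15 in SSDS-GFP 1, 2 and 3 and -1.77, 1.1 and -1.15 in SSDS-shACOT12 1, 2 and 3. With SSDS-shACOT12 2 left out the median was -2.08. It was -0.25 when SSDS-shACOT12 1 was left out, -0.34 when SSDS-shACOT12 3 was and -0.35 when SSDS-GFP 2 was. mt-Co1, which encodes the catalytic core of complex IV, had 28042, 23631 and 23323 CPM against 13363, 23431 and 16876 (log2 fold change -0.48 ± 0.25). mt-Cytb, a subunit of complex III, had 12851, 12142 and 10904 against 5766, 13618 and 8541 CPM. For both, SSDS-shACOT12 2 was at or above the level of the GFP libraries while the other knockdown libraries were below it. mt-Atp8, the only one with an unadjusted p under 0.05, had 5.95, 2.03 and 1.02 against 0.123, 1.42 and 0.182 CPM and overlapped. At that p 0.678% of all genes tested were lower. The 69 nuclear genes of oxidative phosphorylation had small differences of mostly the other sign, with 54 higher, 15 lower and a median of 0.093. Of these, 52 were highest in SSDS-shACOT12 3, and without that library the median was -0.033.

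Chaperone genes of the heat shock and unfolded protein responses were lower in 24 of 30 cases, with a median of -0.13 and the same sign of the median in all 16 alternatives. SSDS-GFP 1 held the highest value of 14 of the 30, against 9.88% of all genes tested, and without it the median was -0.077. Hspb1, a small heat shock protein, had 12.9, 10.5 and 11.5 CPM against 7.55, 9.48 and 8.74, and Manf, a secreted factor of the endoplasmic reticulum, 89.4, 79.5 and 79.9 against 66.3, 74.6 and 61.4. Both had no overlap, with log2 fold changes of -0.44 ± 0.20 and -0.30 ± 0.15.

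Markers of the cell types and neighbouring regions that a dissection can include are given here. Of 18 dentate gyrus granule cell genes 14 were lower and 4 higher (median -0.26, from -0.43 to -0.15 over the alternatives), and 11 of them were lowest in SSDS-shACOT12 2 and 6 in SSDS-shACOT12 3. Tdo2, a tryptophan-degrading enzyme, had 11.2, 11.3 and 8.78 CPM against 7.24, 3.8 and 1.52 without overlap (log2 fold change -1.31 ± 0.47, unadjusted p = 0.0215). Stxbp6, a regulator of vesicle fusion, had 121, 124 and 93.9 against 85.7, 65.9 and 90.6 CPM, also without overlap. The calcium-binding protein gene Calb1 had 176, 145 and 198 against 106, 174 and 60.6 CPM, where SSDS-shACOT12 2 lay among the GFP libraries. Of 10 excitatory neuron genes 6 were higher and 4 lower (median 0.043), with a negative median when SSDS-GFP 3 or SSDS-shACOT12 1 was left out (-0.040 and -0.082). Slc17a7, the vesicular glutamate transporter, had 1708, 1376 and 1368 CPM against 1868, 1344 and 2600 (log2 fold change 0.38 ± 0.25, and 0.10 without SSDS-shACOT12 3). Emx1, a forebrain transcription factor, had 19.8, 14.8 and 16.5 against 25.8, 14.1 and 22.2 CPM (log2 fold change 0.28 ± 0.25, and 0.092 without SSDS-shACOT12 1). Both overlapped between groups. Tbr1, a transcription factor of cortical and hippocampal glutamatergic neurons and a member of the same list, had 42.1, 38.8 and 48.6 against 31.9, 34.2 and 20.6 CPM and did not overlap (log2 fold change -0.58 ± 0.22). The CA1, CA3 and ventral hippocampus markers had 8 of 20 higher and a median of -0.041. Of 11 cerebral cortex and amygdala genes 4 were higher (median -0.11). Their mean log2 CPM, relative to the 6 libraries, ran from -0.72 in SSDS-shACOT12 1 to 0.52 in SSDS-shACOT12 2. Of 8 thalamus and habenula genes 2 were higher (median -0.092), with means from -0.46 in SSDS-shACOT12 1 to 0.33 in SSDS-GFP 3.

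Among glia and the vessel wall, 16 of 20 oligodendrocyte and myelin genes were lower (median -0.19), with the highest values of 10 in SSDS-GFP 1 and the lowest of 11 in SSDS-shACOT12 3. Without SSDS-GFP 1 the median was -0.069. Endothelial and mural genes were higher in 13 of 18 cases (median 0.11). The growth factor receptor Kdr had 10.7, 13.6 and 13 CPM against 15.4, 18.2 and 16 without overlap, and Cldn5, a tight junction protein, 57.4, 47.5 and 72.8 against 87.1, 59.8 and 95 with overlap. Of these 18 genes 9 were highest in SSDS-shACOT12 3, without which the median was 0.049. Ependymal genes were higher in 13 of 15 cases (median 0.34). SSDS-GFP 3 held the lowest value of 11 of them and SSDS-shACOT12 2 the highest value of 9, and the median was 0.082 without SSDS-GFP 3 and 0.088 without SSDS-shACOT12 2. Tekt1, a protein of ciliary microtubules, had 3.3, 2.23 and 1.87 CPM against 3.07, 4.83 and 4.00. Of the 5 tested choroid plexus genes 2 were higher and 3 lower (median -0.33, from -0.59 to -0.071 over the alternatives). None of the 5 had an unadjusted p under 0.05.

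Red blood cell genes were higher in 6 of 6 tested cases (median 0.48), all 6 with their highest value in SSDS-shACOT12 3, and without that library the median was -0.035. Hba-a2, an alpha chain of haemoglobin, had 4.3, 2.75 and 2.89 CPM against 4.79, 4.58 and 12.8 and did not overlap (log2 fold change 1.16 ± 0.44, and 0.49 without SSDS-shACOT12 3). Hba-a1, a near-identical copy, had 43.8, 28.7 and 24.6 against 40.6, 33.6 and 90.0 CPM, and the beta chain Hbb-bs 62.7, 50.2 and 34.7 against 51.1, 50.5 and 86. Reads of the 2 alpha genes cannot be assigned to one or the other with certainty. Whether blood, vessels, dissection or RNA quality have a part in the differences given above was not tested.

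**Figure D5:**
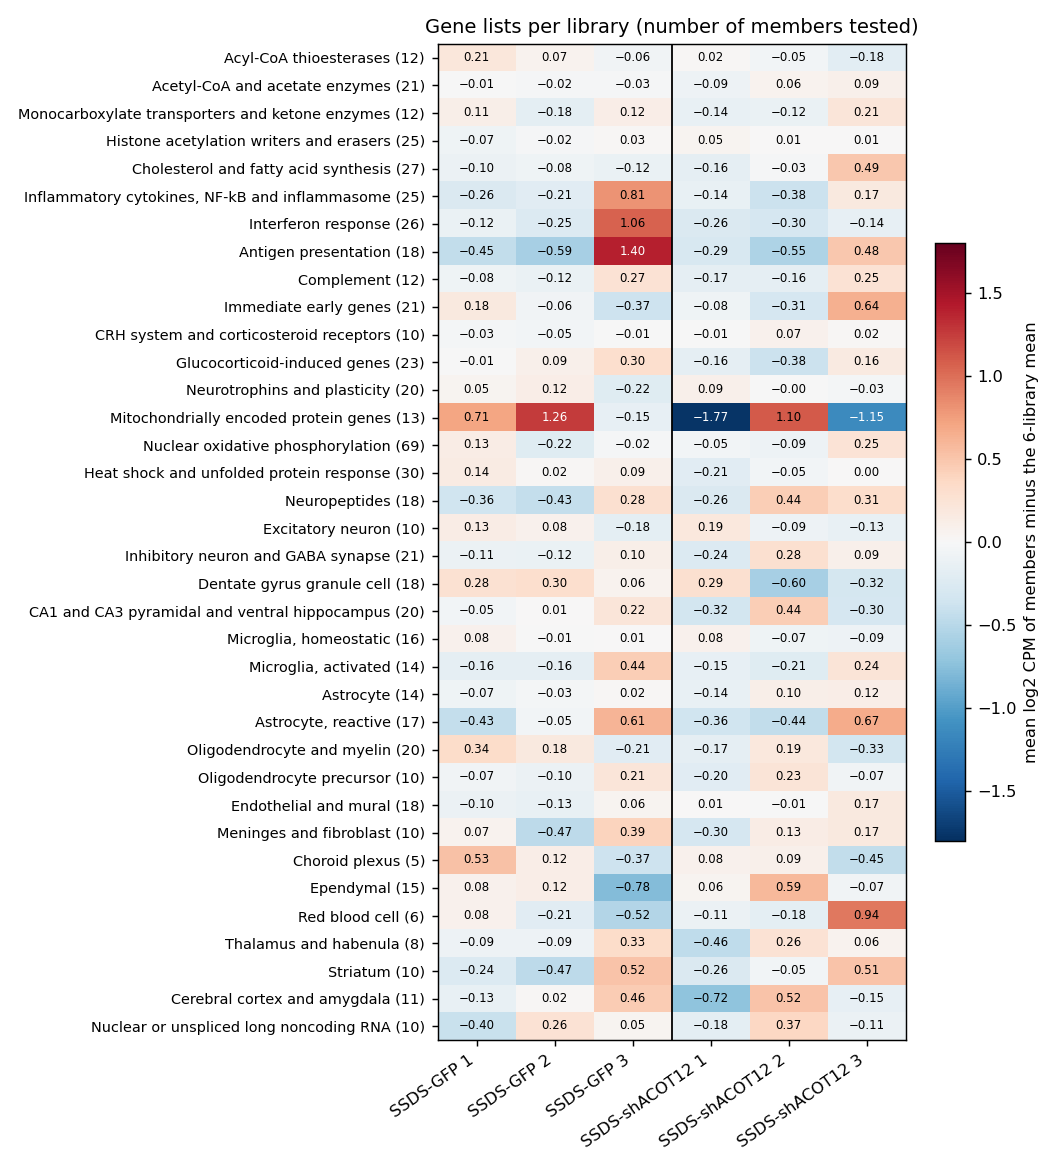
Mean log2 CPM of the tested members of each list relative to the mean of the 6 libraries (colour and printed value, log2 units); columns are libraries, rows are the 36 lists with at least 5 tested members, and the number tested is in brackets. The highest scores of interferon (1.06) and antigen presentation genes (1.40) are in SSDS-GFP 3, those of immediate early (0.64) and red blood cell genes (0.94) in SSDS-shACOT12 3, and the mitochondrially encoded genes split SSDS-shACOT12 2 (1.1) from the other knockdown libraries.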

How the data were processed

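RNA of ventral hippocampus was sequenced in 12 libraries, 3 per group, of which the 6 SSDS libraries were compared. Per the labels' protocols, 1 µg of total RNA was made into libraries with NEBNext Ultra RNA reagents. No source used here says that strand was kept, so overlapping or antisense genes cannot be told apart. The authors used HISAT2 2.0.5, featureCounts 1.5.0-p3, DESeq2 and mm10, per the submitters' processing notes; the strand setting, annotation release and filters are not given in the sources used here. The deposited tables hold raw counts per gene, FPKM values scaled by the authors by gene length and a library size, and gene lengths in bases per the file headers. The table has 54532 genes. Gene symbols turned into dates were restored by gene ID for 27 genes.

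Counts of the 6 libraries alone were fitted with edgeR 4.0.16 (R 4.3.3): genes were kept with filterByExpr (minimum count 10, minimum total 15), scaled by TMM and tested with the quasi-likelihood F test, with Benjamini-Hochberg adjustment over 16075 genes and a threshold of 0.05. CPM values use the TMM-scaled library sizes. Alternatives were DESeq2 1.42.0, limma 3.58.1 on counts and on log2 FPKM with pseudocounts of 0.1 and 1, other filters and scalings, all 12 libraries, the replicate number as a block and each library left out. The procedure was also run on simulated counts of independent libraries. These held no shared effect of the replicate number and no library set apart from the rest, so that run does not cover either. Same-numbered libraries of the 2 groups deviated together, with correlations of deviations from the group means of 0.206, 0.445 and 0.373. Different numbers gave -0.411 to -0.011. Deviations cancel out within each group, so positive values for some pairs bring negative ones for others. The negative values are therefore no separate sign of a pairing. These correlations are the only source of a pairing, since the labels do not say what a number shares.

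Genes named are the 12 higher and 12 lower with the smallest p, the 5 higher and 5 lower with the largest change among genes without overlap at an unadjusted p under 0.05 (mean log2 CPM of at least 1 and a gene symbol that is not a gene model in both cases), up to 3 members of each of 37 lists by smallest p, or by abundance for the mitochondrial, hepatocyte and red blood cell lists, and a fixed set of stress, inflammation and acetate genes. A few genes that this rule names are not reported here. The comparison and the lists were chosen with earlier results of these data known. List members are described by counts and medians only.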

Additional observations from a re-analysis of the deposited data

How the results depend on the processing

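No gene was called under any of the 16 alternatives. The number of genes at an unadjusted p under 0.05, 183, became 2610 with limma-voom and library quality weights, 790 with no filter on low counts, 766 with all 12 libraries in the fit and 106 with at least 50 counts in 3 libraries. With the replicate number as a block it was 1434, of which 165 were among the 183. Leaving out 1 library gave 101 (without SSDS-shACOT12 3) to 2486 (without SSDS-shACOT12 2), and 491 without SSDS-GFP 3; the cause was not tested. Lists with a median log2 fold change of at least 0.25 in size numbered 7, and 4 with log2(FPKM + 1) and 7 to 11 with 1 library left out, the highest without SSDS-GFP 3 and without SSDS-shACOT12 2. Of 36 lists 15 kept the sign of their median in every alternative run for them, 15 alternatives for the mitochondrially encoded genes and 16 for the others.

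Of 82 genes followed, 17 changed sign somewhere. Leaving out 1 library in turn, log2 fold changes with their lowest value without SSDS-shACOT12 3 ran from -0.0016 to 3.18 for Penk, -0.16 to 2.19 for Fosb, -0.25 to 1.11 for Bdnf and -0.36 to 0.83 for Fos. Those with their highest value without SSDS-GFP 3 ran from -3.40 to 0.76 for Il1a, -2.57 to 0.18 for Rsad2, -2.35 to 0.32 for Gbp2, -4.00 to 1.25 for Cd74, -2.92 to 1.03 for Lgals3, -5.31 to 4.64 for Ccl5, -2.83 to 1.06 for H2-Eb1, -0.58 to 0.72 for Nlrp3 and -0.59 to 0.045 for Ifit3. The others ran from -0.53 to 0.037 for Nr3c1, -0.17 to 0.034 for Slc16a1, -0.069 to 0.16 for Fkbp5 and -0.79 to 0.28 for Crh. With library quality weights the values were 0.11 for Cd74, 0.15 for Lgals3, 2.55 for Ccl5, 0.063 for H2-Eb1 and 0.50 for Nlrp3. With 3 libraries per group and a common biological coefficient of variation of 0.255, genes at a few CPM or below rest on few counts per library and their differences are imprecise.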
